A study of Homo sapiens with 2 samples.

Results

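Promoter to distal loops of H3K27ac were described in HCT116 cells, a long-established line from a human colorectal carcinoma. In HiChIP, chromatin ends that lie close to each other in the nucleus are joined, and the joined fragments that carry a chosen protein mark are then pulled down, here with an antibody against H3K27ac, an acetylated form of histone H3. Each read pair (paired-end tag) thus joins 2 genomic intervals, called anchors, and the count of a pair of anchors is the number of such tags. The data comprised 2 replicates of 1 condition, HCT116 cells in standard culture with no further treatment named, so there was no comparison of conditions. The labels number the replicates and do not say whether they came from separate cultures, so the spread between them may be technical. A loop was here a pair of anchors with midpoints between 20 kb and 2 Mb apart and a count of 5 or more summed over both replicates, in which exactly 1 anchor overlapped a promoter, taken as 2.5 kb on each side of the transcription start site of the canonical transcript of a protein-coding gene. The other anchor is called distal. The loops were thus chosen by their length and summed count, and these 2 measures are described below without a test. These criteria gave 1595 loops among 5774 anchor pairs of the same range and count (27.6%), and among 1973472 anchor pairs up to 2 Mb apart with any count. The remaining pairs of the same range and count joined 2 distal anchors (3718) or 2 promoter anchors (461).

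Enhancers are stretches of DNA that bind transcription factors and raise transcription from promoters that can lie far away on the same chromosome, and H3K27ac marks those enhancers and promoters that are active. Loops of chromatin bring such elements close together, and an enhancer does not always act on the gene nearest to it. In epithelial tumours of the colon, transcription factors of the AP-1 family (dimers of FOS and JUN proteins) and the TCF/LEF factors of the WNT pathway are known to bind many enhancers. A loop in these data reports contact of acetylated chromatin and not the activity of an element.

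Sequences are shown for 4 loops on which the results below turn, namely the strongest loops of KRT19, HMGA2 and TCF7L2 and the longest loop of all, at BCL6. The promoter windows, given for TCF7L2 and BCL6, run from 270 bases before the transcription start to base 30 of the transcript, on the strand of the gene. The distal window, given for all 4 loops, is the stretch of 300 bases of the distal anchor with most matches to the AP-1 motif TGANTCA, which reads the same on both strands apart from its central base. Positions are those of GRCh37 (hg19), counted from 1, and the letters that match the motif are in capitals.
KRT19 distal window, chr17:39071438-39071737, plus strand: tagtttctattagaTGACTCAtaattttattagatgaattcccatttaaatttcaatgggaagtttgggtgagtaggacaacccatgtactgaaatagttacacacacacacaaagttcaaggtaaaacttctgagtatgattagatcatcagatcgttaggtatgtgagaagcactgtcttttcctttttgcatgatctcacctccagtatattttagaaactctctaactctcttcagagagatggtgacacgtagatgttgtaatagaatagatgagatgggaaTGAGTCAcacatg
HMGA2 distal window, chr12:66048835-66049134, plus strand: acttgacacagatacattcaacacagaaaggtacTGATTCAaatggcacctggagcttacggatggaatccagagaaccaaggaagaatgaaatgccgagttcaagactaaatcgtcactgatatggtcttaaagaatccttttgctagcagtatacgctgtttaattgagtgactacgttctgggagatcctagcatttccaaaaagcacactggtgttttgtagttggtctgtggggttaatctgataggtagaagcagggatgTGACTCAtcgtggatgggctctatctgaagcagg
TCF7L2 promoter window, chr10:114709736-114710035, plus strand: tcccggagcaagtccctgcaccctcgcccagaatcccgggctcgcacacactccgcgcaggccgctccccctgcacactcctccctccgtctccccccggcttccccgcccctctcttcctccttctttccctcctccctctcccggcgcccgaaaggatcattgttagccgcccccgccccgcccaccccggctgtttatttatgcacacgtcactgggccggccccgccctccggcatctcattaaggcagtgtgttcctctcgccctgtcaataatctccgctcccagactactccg
TCF7L2 distal window, chr10:114277230-114277529, plus strand: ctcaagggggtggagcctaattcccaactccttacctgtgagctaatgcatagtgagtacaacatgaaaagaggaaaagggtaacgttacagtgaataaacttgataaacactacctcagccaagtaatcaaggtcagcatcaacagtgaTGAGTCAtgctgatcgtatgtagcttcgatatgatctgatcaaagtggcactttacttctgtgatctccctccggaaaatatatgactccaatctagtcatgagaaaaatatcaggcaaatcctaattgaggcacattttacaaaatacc
BCL6 promoter window, chr3:187463227-187463526, minus strand: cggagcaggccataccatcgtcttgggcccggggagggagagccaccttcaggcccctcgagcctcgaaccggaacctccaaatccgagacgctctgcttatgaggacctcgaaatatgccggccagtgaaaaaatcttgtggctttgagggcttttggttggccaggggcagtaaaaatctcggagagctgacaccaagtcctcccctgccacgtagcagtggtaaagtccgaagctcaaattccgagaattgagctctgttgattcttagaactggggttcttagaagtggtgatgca
BCL6 distal window, chr3:188668718-188669017, plus strand: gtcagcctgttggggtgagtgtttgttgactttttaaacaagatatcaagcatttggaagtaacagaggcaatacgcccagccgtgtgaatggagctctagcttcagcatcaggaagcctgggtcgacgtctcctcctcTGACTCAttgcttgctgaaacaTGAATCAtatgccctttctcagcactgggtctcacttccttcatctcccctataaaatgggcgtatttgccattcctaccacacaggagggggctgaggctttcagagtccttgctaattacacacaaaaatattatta
Neither promoter window shown held the motif. The distal windows of KRT19, HMGA2 and BCL6 held 2 matches each, and that of TCF7L2 held 1. These windows were chosen for the motif, so their content is not a result. Over the whole distal anchor there were 6 matches in 9214 bp for KRT19, 12 in 19272 bp for HMGA2, 2 in 6811 bp for TCF7L2 and 4 in 9743 bp for BCL6. The distal window of TCF7L2 lay in an intron of VTI1A and that of BCL6 in an intron of TPRG1, whereas those of KRT19 and HMGA2 lay in no protein-coding gene. Not every strong distal anchor held the letters. The 579 kb loop of CCND1 ended in an anchor of 5909 bp without a match, whereas the distal anchor of the strongest loop of ITPRID2 held 5 matches in 4954 bp.

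Over all loops, the central 1 kb of 34.7% of the 1452 distal anchors held the AP-1 motif, compared with 30.1% of all 233638 anchors that overlap no promoter. Of the central 300 bases, 12.4% held it, compared with 10.3%, and over whole anchors there were 0.388 and 0.358 matches per kb. In windows of 300 bases at the promoters of all protein-coding genes, placed as above, the share was 5.60%. The distal anchors of loops were thus slightly richer in these letters than other anchors, and the promoters poorer. The TCF/LEF, GATA and forkhead motifs went the opposite way. The TCF/LEF motif CTTTGAT was in 13.2% of central 1 kb windows of distal anchors and 16.9% of all non-promoter anchors, the GATA motif AGATAA in 41.3% and 52.9%, and the forkhead motif TGTTTAC in 11.6% and 14.4%. Each motif was searched on both strands. Base composition differed as well, with a median GC content of 46.4% in distal anchors of loops and 40.9% in all non-promoter anchors, and its part in the motif shares was not tested. A consensus for CTCF, the factor found at the feet of many chromatin loops, was rare. It was in the central 1 kb of 7 distal anchors of loops (0.482%), against 0.196% of all non-promoter anchors. Among all promoter anchors the share was 0.488%. The higher share in distal anchors of loops thus rests on few anchors and is not particular to them. Over whole anchors, which were wider in loops (median 4910 against 2496 bp), the shares were 3.58% and 0.663%. It was present in both anchors of 3 loops, too few to describe its orientation.

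Depth was 1885470 counts in replicate 1 and 2131462 in replicate 2, of which 1187130 and 1369538 joined different anchors up to 2 Mb apart. There were 250222 anchors on the nuclear chromosomes, with a median width of 2541 bp, and 16584 of them (6.63%) overlapped a promoter. The labelled cell type was compared with its markers through the counts that join an anchor to itself, which reflect the local H3K27ac signal and are called same-anchor counts below. Per kb of promoter anchor their median was 1.12 for 8 colon epithelium markers, 1.02 for 7 fibroblast markers, 0.489 for 7 leukocyte markers, 0.136 for 4 endothelial markers and 0.927 for all genes. Epithelial and fibroblast markers were therefore not separated by this measure. Among epithelial markers KRT8 and KRT19 had loops, no fibroblast or endothelial marker did, and among leukocyte markers CD79A had 1 loop. CDX1, CDX2, EPCAM, CDH1, KRT18 and VIL1, which also mark colon epithelium, had none.

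The 1595 loops held 10391 counts, 4758 in replicate 1 and 5633 in replicate 2. The count of a loop ran from 0 to 23 in replicate 1 and from 0 to 24 in replicate 2, with a median of 3 in both. Both replicates contributed to 1537 loops (96.4%), while 40 had no count in replicate 1 and 18 had none in replicate 2. Most loops sat at the lower limit of the rule. A summed count of exactly 5 was found for 811 loops (50.8%), and 1902 promoter to distal pairs of the same range lay just outside with a summed count of 4. Counts of 10 or more were reached by 140 loops and counts of 20 or more by 15. At the lower limit of length, 89 loops measured 20 to 21 kb and 86 pairs with a count of 5 or more measured 19 to 20 kb. A count of 5 in a single replicate was reached by 217 loops in replicate 1 and 326 in replicate 2, and by 85 loops in each of the 2 replicates.

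The division of the summed count between the replicates was not used to choose the loops, so it could be tested. Replicate 1 held 46.4% of all counts between different anchors and 45.8% of the counts in loops. In a two-sided exact binomial test with Benjamini-Hochberg adjustment over 5774 pairs, no loop departed from the overall split (0 of 1595, lowest adjusted p = 1), and the background was 0% of all pairs. At an unadjusted p under 0.05 there were 44 loops (2.76%), compared with 2.94% of all pairs. The lowest p, 0.00205, belonged to a loop of PDP1 with 11 counts in replicate 1 and 1 in replicate 2. With a median of 3 counts per replicate, only a large imbalance in a loop with many counts could have been detected. For a summed count of 5, even 5 counts in replicate 1 and 0 in replicate 2 gave an unadjusted p of 0.0216 in this binomial test. Loops at that limit could thus not be called after adjustment, and the absence of calls does not show that the replicates agree.

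**Figure D1:**
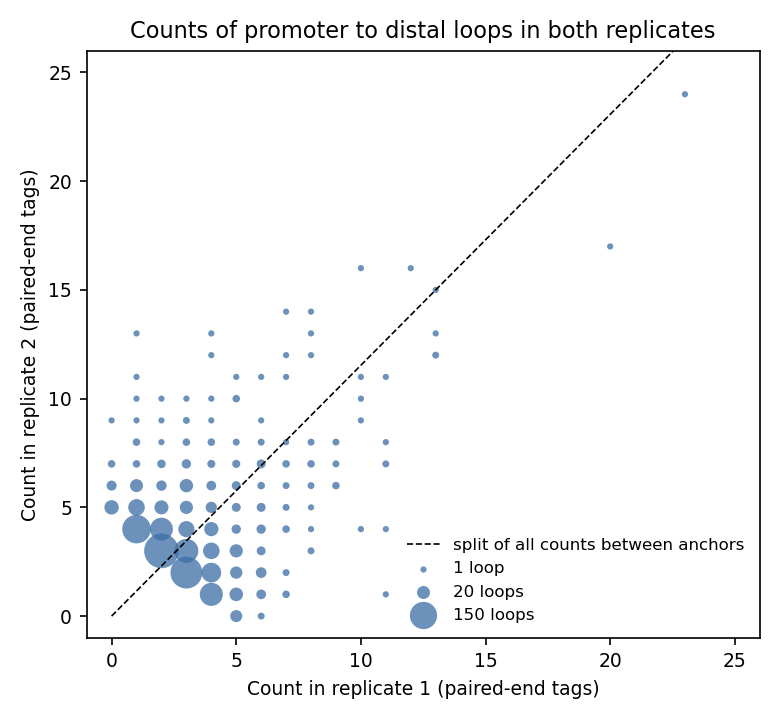
Counts of the 1595 promoter to distal loops in replicate 1 (x axis) and replicate 2 (y axis), in paired-end tags, with the size of a point giving the number of loops at that pair of counts. Most loops sit near the diagonal edge set by the summed count of 5, and the dashed line marks the overall split of counts between the replicates, 46.4% in replicate 1.

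The loops reached 1232 genes, 7.48% of the 16467 protein-coding genes with a promoter anchor. Most of these genes had a single loop (935, 75.9%), 174 had 2 loops, 63 had 3, 26 had 4 and 34 had 5 or more. Genes with 3 or more loops numbered 123, or 0.747% of genes with a promoter anchor. The loops started from 1074 promoter anchors, and the promoter anchor held 1 gene in 1396 loops, 2 genes in 176 and 3 or more in 23, where the counts cannot be given to a single gene. Loops were more frequent at genes with a stronger local mark, although they occurred at all levels of it. Of the genes whose promoter anchors had a same-anchor count of 0 or 1, 1.06% had a loop, rising to 2.40% for 2 to 4, 6.01% for 5 to 8 and 22.8% for 9 or more. Because both measures come from the same libraries and the same anchors, this order is a description. The same-anchor counts were here not divided by width. Promoter anchors of loops were wider, with a median of 5134 bp against 3249 bp for all promoter anchors, and the part of width was not tested.

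The gene with most loops was TRIB1, which encodes a pseudokinase that directs proteins to degradation. It had 18 loops with 63 counts in replicate 1 and 73 in replicate 2, of 47.2 to 319 kb, and 14 of them lay upstream of the gene, most in the body of NSMCE2. Its strongest loop measured 155 kb, with 8 and 14 counts in the 2 replicates. No loop of TRIB1 skipped another gene. On the same chromosome, PDP1, a subunit of the phosphatase that activates pyruvate dehydrogenase, had 12 loops, and its loop of 32.5 kb had the highest count of all, 23 and 24. The PDP1 loops were short, with a median of 46.2 kb, in contrast to 215 kb for TRIB1. YWHAZ, a 14-3-3 adaptor protein, also on chromosome 8, had 8 loops of 37.4 to 245 kb, with single-replicate counts between 1 and 6.

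TCF7L2, the TCF/LEF factor that works with beta-catenin in WNT signalling, had 13 loops with 55 and 48 counts in replicates 1 and 2. They fell into separate stretches. Of these loops, 6 ended between 416 and 476 kb upstream within VTI1A, with 7 and 5, 5 and 5, 7 and 7, 2 and 3, 5 and 6, and 5 and 6 counts in the 2 replicates, in order of length. Each of the 6 was thus present in both replicates. None skipped a gene by the rule used, since the start of VTI1A lay beyond the distal anchors, although VTI1A was the gene nearest to all 6. HMGA2, an architectural chromatin protein, had 12 loops, 10 of them upstream and reaching 401 kb. Its strongest loop, at 182 kb, had 13 counts in replicate 1 and 12 in replicate 2, and the longest, in MSRB3, had 6 and 7. SOCS6, of the family of cytokine signalling suppressors, had 12 loops of 25.5 to 134 kb, 9 of them downstream of its start.

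ITPRID2 had 8 loops and some of the highest counts at distances near 100 kb. The loop at 97.9 kb had 12 and 16 counts and that at 108 kb had 13 and 13. Both joined the promoter to intergenic sequence upstream. CUEDC1 likewise had 8 loops, 6 of them downstream and within its own gene body, and the loop at 72.8 kb had 10 counts in each replicate. All 8 loops of DDX60L, which encodes a helicase-like protein, ran in 1 direction and passed over the start of PALLD to end inside PALLD. The strongest of them, at 57.7 kb, had 13 and 12 counts, whereas the same distal anchor had 5 counts with the PALLD promoter. These counts were not adjusted for the width or depth of the promoter anchors. The DDX60L promoter anchor was 14366 bp wide, and the loop was 1.95 times its expected count of 12.8. Its distal anchor also overlapped the annotated body of DDX60L. ARL14EPL had 7 loops. Its loop of 110 kb had 10 and 16 counts and passed over LVRN, with which the same distal anchor had 8 counts. Its promoter anchor was 19815 bp wide, so the counts may belong to other elements within it.

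**Figure D2:**
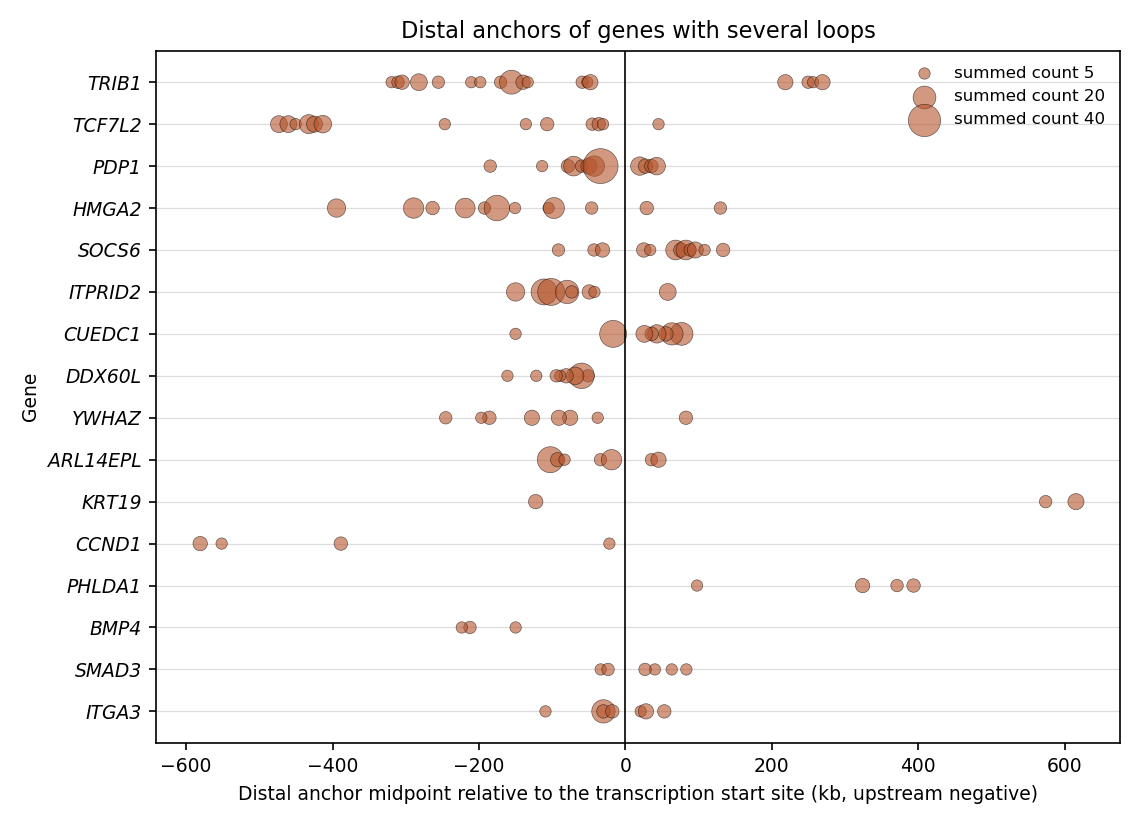
Distal anchors of 16 genes with several loops, placed by the distance in kb between the midpoint of the distal anchor and the transcription start site (upstream negative). Each circle is 1 loop and its area is the summed count. Loops of TRIB1, TCF7L2, HMGA2 and CCND1 lie mainly upstream, those of PHLDA1 all lie downstream, and 2 loops of KRT19 lie beyond 500 kb.

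Among the 123 genes with 3 or more loops, 45 had all of them on 1 side of the start site. The distal anchors themselves were seldom shared. Of 1452 distal anchors, 116 were joined to 2 or more promoter anchors and 22 to 3 or more. The highest number was 5, for an anchor within ABCC3, a drug transporter, at chr17:48752801-48767692, which was joined to the promoters of ABCC3, ANKRD40, ANKRD40CL, LUC7L3 and SPATA20. Hubs of the keratin genes on the same chromosome are described with the skipped genes. The anchor at chr7:116081154-116097984, within CAV2, was joined to CAV1, CAV2 and TES, of which CAV1 and CAV2 encode the proteins of caveolae. The anchor at chr17:73678995-73682374, in SAP30BP, was joined to ITGB4, to GALK1 and to an anchor holding SMIM5 and SMIM6.

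Loops had a median length of 38.8 kb, with quartiles of 25.7 and 77.6 kb, and 90% were shorter than 158 kb. Within each replicate, the loops with 5 or more counts had median lengths of 41.1 kb (replicate 1) and 37.3 kb (replicate 2). The other classes of pairs were similar in median length, at 36.6 kb for distal to distal and 36.8 kb for promoter to promoter pairs. Only promoter to promoter pairs had fewer long members than the loops in the sum and in both replicates. For distal to distal pairs the share of 100 kb or more was 16.0% in replicate 1 and 20.8% in replicate 2. Lengths of 100 kb or more were found for 18.9% of promoter to distal loops, 18.2% of distal to distal pairs and 10.8% of promoter to promoter pairs, and in the single replicates the promoter to promoter share was 5.00% and 7.08%, below the 18.9% and 15.6% of promoter to distal loops. Since length and count chose all of these pairs, the shares are given without a test.

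The count expected from the distance and from the depth of both anchors had a median of 2.20 over the loops, and the observed count was a median of 2.73 times the expected one, from 0.502 to 92.1 times. Because the count chose the loops, a ratio above 1 is partly given by the rule. For 51 loops the ratio was 1 or less, for 307 it was 5 or more, and for 70 it was 10 or more. The exact Poisson 95% interval of the count lay wholly above the expected count in 817 loops (51.2%) and in 111 of the 127 loops of 200 kb or more (87.4%). The lower bound for a count of 5, the minimum of the rule, is 1.62, so any loop with a smaller expected count met this automatically. The median expected count was 1.29 at 200 to 500 kb. These shares, and the intervals of single ratios below, are therefore description and not a test. The median ratio rose with length, from 2.25 at 20 to 30 kb to 9.14 at 500 kb or more, where a count of 5 is rarely expected.

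The longest loop, 1202 kb, joined the promoter of BCL6, a transcriptional repressor, to an anchor in TPRG1 and passed over LPP. It had 3 counts in each replicate and was 36.4 times the expected count (95% interval 13.3 to 79.1). The promoter anchor of BCL6 also held the gene ENSG00000285938. The next was a loop of 1115 kb at BCL10, an adaptor of NF-kappaB signalling, which ended in PRKACB, passed over 13 genes and had 2 and 3 counts. The longest loop of ZFP36L1, a protein that promotes decay of mRNA, measured 852 kb within RAD51B, with 3 and 2 counts. These loops were therefore long but rested on few counts. BBS10, a chaperonin-like protein, had loops of 688 kb (3 and 4 counts) and 710 kb (4 and 4 counts), both passing over PHLDA1 and NAP1L1. The same 2 distal anchors were joined to PHLDA1, at 371 kb (3 and 3 counts) and 393 kb (5 and 2 counts). PHLDA1, which is induced by ERK signalling, had 4 loops in all, all downstream of its start. The highest ratio, 92.1 (29.9 to 215), belonged to a loop of 601 kb at RAP2B, a small GTPase, with 2 and 3 counts. The loop of 465 kb at SOX2, a transcription factor of stem cells, had the same counts and a ratio of 27.7.

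Of the 1595 loops, 472 (29.6%, exact binomial 95% interval 27.4 to 31.9%) passed over the transcription start of at least 1 other protein-coding gene between their anchors. They skipped 1 gene in 271 loops and 2 or more in 201, with 5 or more in 36 and 10 or more in 10. The gene whose start lay nearest to the distal anchor was the gene of the loop in 778 loops (48.8%). In another 345 (21.6%) a different gene was nearer although none was skipped, because it lay beyond the distal anchor. Intervals cover counting error only, and loops that share an anchor are not independent. Skipping was common in long loops. It rose from 14.9% at 20 to 30 kb to 52.3% at 100 to 200 kb and 70% of the 20 loops of 500 kb or more, while the share at the nearest gene fell from 64.1% to 10%.

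A skipped promoter was often joined to the same distal anchor. In 450 loops the skipped start lay in a promoter anchor, and in 152 of them (33.8%) the distal anchor had as many counts, or more, with a skipped promoter as with the gene of the loop. In 40 loops (8.89%) it had no count with any skipped promoter. The most extreme case was the keratin cluster. KRT19, an intermediate filament protein of simple epithelia, was joined over 617 kb to an anchor at chr17:39064368-39073581, the distal anchor shown above, with 4 counts in replicate 1 and 6 in replicate 2. This loop passed over 48 genes, all of them keratins and keratin-associated proteins, and it had 11.9 times its expected count (5.69 to 21.8). The same distal anchor was joined to KRT10, KRT23 and KRT35, and its highest count with a skipped promoter was 17. A further loop of KRT19 measured 576 kb, passed over 47 genes and had 3 counts in each replicate. The neighbouring gene KRT15 had a loop of 618 kb, also with 3 counts in each replicate. The long contacts of this cluster therefore involved 3 promoter anchors, those of KRT15, KRT19 and KRT35, and 3 distal anchors at its other end.

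Loops were compared with promoter to distal pairs of the same range that had a single count, weighted to the same lengths. Genes were skipped by 29.6% of loops and by 38.1% of single-count pairs. In the single replicates the values were 20.7% and 21.1% for pairs with 5 or more counts and 37.9% and 38.1% for pairs with 1 count, so the order was the same in both. Anchor widths moved with this difference, since the distal anchors of loops had a median width of 5070 bp and those of single-count pairs 2902 bp, and the part of width was not tested. When both anchors were required to measure 3 to 6 kb, a limit chosen after the data had been seen, 37.1% of 328 loops and 36.4% of 40049 single-count pairs skipped a gene. The near-equal totals hid opposite differences between lengths. At 3 to 6 kb, loops skipped genes more often at 20 to 30 kb (19.2% against 15.1%) and 30 to 50 kb (34.5% against 26.8%). They did so less often at 50 to 100 kb (45.6% against 47.5%), 100 to 200 kb (58.1% against 70.9%) and 200 to 500 kb (71.4% against 87.3%), and in each class the interval of the loops included the value of the single-count pairs. The share at the nearest gene was 48.8% against 43.2% over all widths, and 43.4% against 46.3% at 3 to 6 kb.

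**Figure D3:**
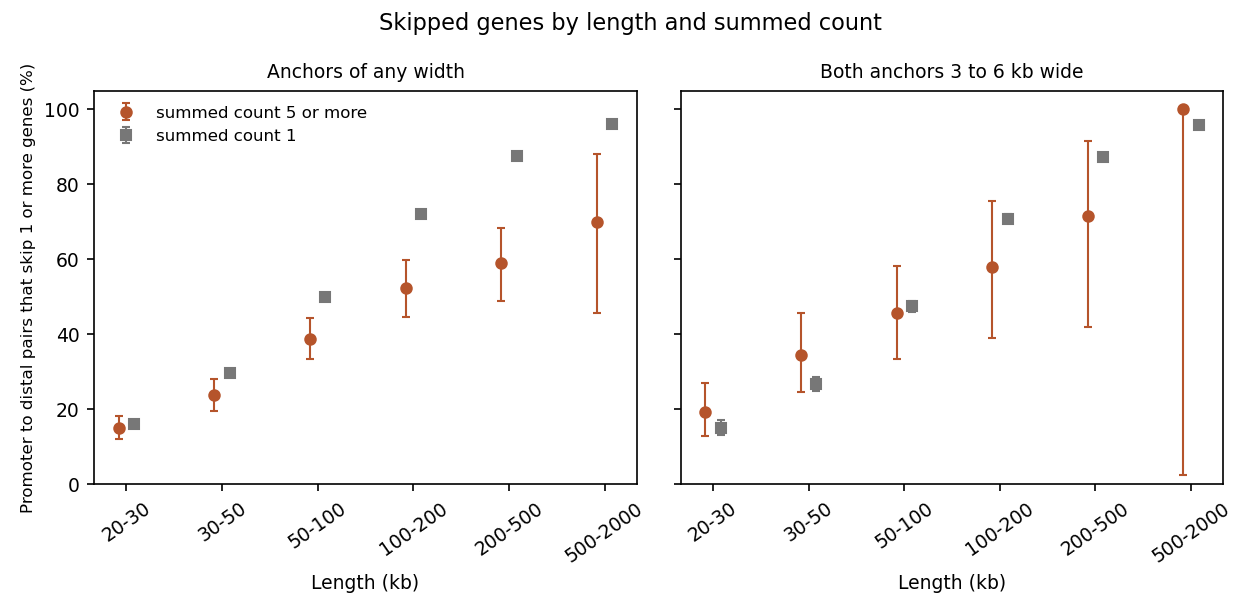
Share of promoter to distal pairs that pass over 1 or more protein-coding transcription starts, by length class in kb, for pairs with a summed count of 5 or more (circles) and of 1 (squares), with exact binomial 95% intervals. With anchors of any width the loops lie below the single-count pairs from 30 kb on, whereas with both anchors 3 to 6 kb wide the intervals of the loops include the single-count values in all 6 classes, and the longest class there holds 1 loop.

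The distal anchor lay in the body of the gene of the loop in 443 loops (27.8%), in that of another protein-coding gene in 534 (33.5%) and in none in 618 (38.7%). It was upstream of the promoter in 736 loops and downstream in 715, and in the other 144 the promoter anchor held genes for which the side differed. The 2 sides were thus about equally used. The distal anchor overlapped a promoter of a non-coding gene in 282 loops (17.7%), compared with 10.6% of single-count pairs of like length, and with 16.3% and 12.1% when both anchors measured 3 to 6 kb. It overlapped an alternative promoter of the gene of the loop in 80 (5.02%), compared with 2.36%, and in 4.53% against 3.28% at 3 to 6 kb. Such loops join promoters to promoters under a wider definition. Same-anchor counts were higher at both ends of loops, with medians of 11 at the distal anchor and 15 at the promoter, against 2 and 5 in single-count pairs.

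Of 27 genes of epithelial adhesion and keratin filaments with a promoter anchor, 13 had a loop (48.1%), beside 7.48% of all genes. The group held 29 loops, of which ITGA3, the alpha chain of a laminin-binding integrin, had 7 with 28 and 33 counts in the 2 replicates. COL17A1, a transmembrane collagen of hemidesmosomes, had 4 loops and KRT19 had 3. ITGB4, the beta chain that pairs with ITGA6 in hemidesmosomes, had loops at 22.9 kb (3 and 2 counts) and 39.2 kb (1 and 5 counts). Loops were also found at ITGA6, ITGB1, CLDN4, JUP, CD9, PLEC, KRT8 and KRT20. The members of the group had a median of 1.72 same-anchor counts per kb of promoter, compared with 0.927 for all genes. Several of its genes with loops also lie on chromosomes rich in loops, ITGA3, ITGB4 and KRT19 on chromosome 17 and COL17A1 on chromosome 10. These chromosomes had 23.8 and 16.9 loops per 100 promoter anchors, against a median of 8.19 over the autosomes. The part of chromosome in the share of this group was not tested.

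Genes of RAS-ERK feedback and response had loops in 8 of 22 cases (36.4%). They comprised the ERK phosphatases DUSP4, DUSP5 and DUSP6, the growth factors EREG and TGFA, the receptor EPHA2, PHLDA1 and CCND1. CCND1, cyclin D1, which starts the cell cycle, had 4 loops, of 20.0, 387, 550 and 579 kb. The longest had 2 counts in replicate 1 and 6 in replicate 2 and ended in TPCN2, at 14.0 times its expected count (6.05 to 27.6). The 3 loops of DUSP5 all lay upstream, within 101 kb, with 2 or 3 counts in each replicate. The share of this group was above the background, yet its promoters also had more same-anchor counts per kb, with a median of 1.74.

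Of 16 TGF-beta and BMP genes, 5 had loops (31.2%). SMAD3, which carries TGF-beta signals to the nucleus, had 6 loops of 23 to 83.9 kb, all at the nearest gene, with 14 and 18 counts in total. BMP4, a secreted ligand of this family, had 3 loops of 151 to 225 kb upstream, with 2 and 3, 2 and 4, and 3 and 2 counts. ID1, a target of BMP signalling that blocks transcription factors of the helix-loop-helix class, had 3 loops, the strongest at 34.1 kb with 4 and 12 counts in HM13. The other members with a loop were ID3 and TGFBR2. SMAD3 therefore had short loops within and beside its own gene, whereas those of BMP4 were all long.

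AP-1 family genes had loops in 4 of 14 cases (28.6%), at FOSB, FOSL2, ATF3 and MAFG. Intestinal transcription factors had them in 3 of 19 (15.8%), at SOX9, ELF3 and EHF, and WNT feedback and target genes in 3 of 19, at RNF43, CCND1 and SOX9. For p53 targets and for cell cycle regulators the count was 3 of 24 (12.5%). Among cytosolic ribosomal protein genes 6 of 81 (7.41%) had a loop. The median of same-anchor counts per kb of promoter was 2.05 for these genes and 1.72 for the adhesion genes. The part of this signal in the shares was not tested. Among proteasome subunit genes the count was 2 of 36, and among olfactory receptor genes, which mark sensory neurons of the nose, 2 of 183 (1.09%), at OR13J1 and OR5K2. Of 12 genes that the study itself names, 7 had loops (58.3%, 27.7 to 84.8%), the highest share of the 12 lists, namely ITGB4, GALK1, GDF15, EPHA2, ID1, BMP4 and NOTCH1. As the study chose these genes partly on the same libraries, their count is not independent evidence. RECQL4, MSLN, LIF, SMAD7 and FOXA1 had no loop. For RECQL4 the study describes an enhancer closer to the promoter than the lower limit of 20 kb used here. For MSLN or GDF15, however, it reports that some enhancer contacts are longer than 20 kb. Under the rule used here GDF15 had 1 loop of 21.6 kb, whereas MSLN had none. The study selected contacts by overlap with its own enhancer set, so the lists were not chosen in the same way. GALK1, a galactose kinase, had 1 loop of 78.4 kb with 3 and 8 counts, which passed over ITGB4 to the anchor in SAP30BP that ITGB4 also contacted. The study describes a GALK1 contact over a shorter distance, with a signal that it calls not robust. The loop described here may therefore be a different contact.

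**Figure D4:**
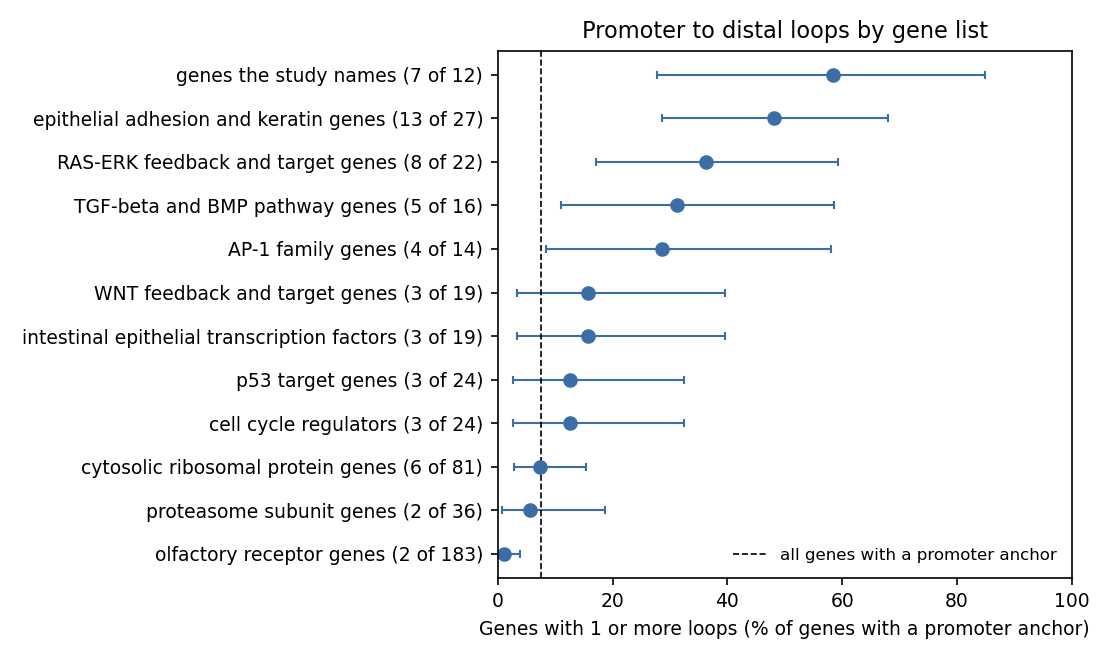
Share of genes with 1 or more promoter to distal loops in 12 gene lists (points, in % of the genes with a promoter anchor, with exact binomial 95% intervals that cover counting error only). The dashed line is the share over all genes, 7.48%. The genes the study names reach 58.3%, adhesion and keratin genes 48.1% and ribosomal protein genes 7.41%.

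The loops were unevenly spread over the chromosomes. Chromosomes 8, 10 and 17 held 491 loops (30.8%) but 13.5% of promoter anchors, with 24.2, 16.9 and 23.8 loops per 100 promoter anchors, compared with a median of 8.19 over the autosomes. These chromosomes also had more counts per anchor, with means of 26.3 on chromosome 8, 23.6 on chromosome 10 and a still higher one on chromosome 17, against a median of 20.2. Chromosome X had 2 loops and a mean of 5.93 counts per anchor. Among the autosomes and chromosome X, those with most and with fewest loops per promoter anchor thus stood apart in depth as well. The part of depth was not tested. Among the others the 2 measures ran together only in part. Chromosome 13 had 4.61 loops per 100 promoter anchors at a mean of 17.4 counts, and chromosome 12 had 9.35 at 20.9. Chromosomes 18 and 19 departed from this order, with 12.3 loops per 100 promoter anchors at 17.5 counts and 7.50 at 21.7. Counts per anchor hold both the number of copies of a chromosome in the line and its H3K27ac signal, which cannot be told apart here. TRIB1, PDP1, YWHAZ, TCF7L2, CUEDC1, ITGA3, ITGB4, COL17A1 and KRT19 lie on chromosomes 8, 10 and 17, whereas HMGA2, SOCS6, ITPRID2, DDX60L and ARL14EPL do not. PDE4DIP, whose loop of 22.3 kb had the second highest count (20 and 17), belongs to a region of chromosome 1 with near-identical copies, and its counts are uncertain.

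**Figure D5:**
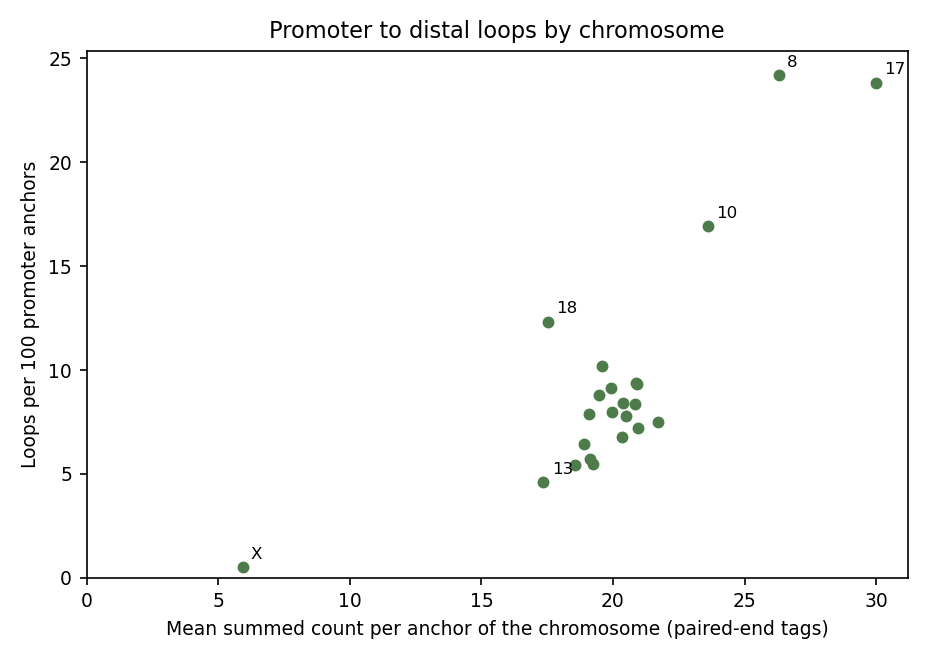
Promoter to distal loops per 100 promoter anchors (y axis) against the mean summed count per anchor (x axis) for the autosomes and chromosome X, each point 1 chromosome. Chromosomes 8, 10 and 17 lie apart from the others on both axes, and chromosome X lies lowest on both.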

How the data were processed

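The data were H3K27ac HiChIP libraries of HCT116 cells, cut with MboI. Per the labels and the study's methods, HiC-Pro gave the valid pairs and hichipper the loops. The deposited tables, 1 per replicate, hold raw, not normalized, counts of paired-end tags per anchor pair. The build was hg19 per the labels. The source of the anchors and the tool versions are not given in the sources used here. Both tables were summed per anchor pair, and anchors of the 24 nuclear chromosomes were used. Promoters came from GENCODE release 44 on GRCh37. The expected count was computed from 60 distance classes and anchor weights balanced in 20 rounds, with the count of the pair left out of the depth (offset 0.5). Only the replicate split was tested, by an exact binomial test. Intervals are exact 95% intervals (Clopper-Pearson, Poisson), and without molecular identifiers they cover counting error only. The loops, lists and motifs were chosen with earlier results of these data known. Genes named were those of the 10 loops with the highest count, length, ratio and number of skipped genes, the 10 genes with most loops, the leading members of each list and genes the study names. CD79A and the remaining list members were named after their values were seen, and the genes whose sequences or shared anchors are shown were also chosen then. Alternatives were the distance measure, count minimum, promoter width and transcripts, non-coding promoters, wide anchors, the expectation and each replicate. Scripts were tested on simulated data. Tools were scipy 1.17.1, pysam 0.24.0, pandas 2.3.3, numba 0.67.0, numpy 2.4.6 and matplotlib 3.10.9 under Python 3.11.15. Some items are not reported here.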

Additional observations from a re-analysis of the deposited data

How the results depend on the processing

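Minimums of 4, 6 and 10 gave 3497, 784 and 140 loops and 2547, 627 and 113 genes, and a minimum of 5 in a single replicate gave 217 to 326 loops and 185 to 286 genes. Anchors of 3 to 6 kb, a limit added after the data had been seen, left 328 loops and 336 genes, with a median length of 36.0 kb. An anchor of 10 kb or more was part of 508 loops (31.8%), and 1190 loops remained when distance was measured between inner edges. The median length was 45.7 kb when distance was measured between inner edges and 43.0 kb at a minimum of 4, and 37.3 to 41.1 kb in single replicates. The share of loops that skip a gene was 35% with inner edges, 34.4%, 27.4% and 15% at minimums of 4, 6 and 10, 31% and 25.5% with promoters of 1 and 5 kb on each side, 23.8% with promoters of every transcript, 28.5% without distal anchors at non-coding promoters, 30.6% without anchors of 10 kb or more, 34.8% with anchors of 3 to 6 kb, 28.8% without chromosomes 8, 10 and 17 (also added later), and 20.2% to 20.3% in single replicates. The share at the nearest gene was, in the same order, 42.3%, 44.2%, 52.2%, 59.3%, 47.0%, 53.2%, 51.8%, 50.0%, 46.7%, 45.4%, 49.7% and 56.4% to 57.6%. Each of these settings moved these shares by more than the SD between replicates. That SD rests on the 2 single-replicate values and was only 0.022 percentage points for skipping and 0.822 for the nearest gene. It is therefore a weak measure of spread. The median ratio to the expected count was 17.6 with an expectation from distance alone, 2.24 when the pair's own count stayed in the depth and 2.89 to 3.56 in single replicates. Every setting of the replicate split called 0 loops, with 7 to 139 at an unadjusted p under 0.05. No paired analysis was possible because the series holds 1 group. The depth limits the description to pairs with several counts, and a promoter to distal pair below 5 counts was not shown to be absent.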
